A study of Mus musculus with 12 samples.

Results

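The 10 genes described here build, load and switch on the molecules of the major histocompatibility complex (MHC). They were taken by name from the table of 15855 genes, with earlier results of these data known. The 5 genes of the class II arm were H2-Aa, H2-Ab1, H2-Eb1, Cd74 and Ciita, and the 5 genes of the class I arm were H2-K1, H2-D1, B2m, Tap1 and Nlrc5. Each of the 10 was present in the table, had reads in each of the 12 libraries and passed the filter on low counts. Expression was measured by RNA sequencing in live EpCAM+ epithelial cells sorted from the whole small intestine of C57BL6/J mice, male and 8 to 12 weeks old by the study's methods, at 24 h after surgery. In the pMCAO group (5 mice) a filament permanently closed the middle cerebral artery, a model of stroke without return of flow. In the sham group (7 mice) the operation was the same but without closure of the artery, so anaesthesia and neck surgery were shared by both groups, and no unoperated mice were analysed here.

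MHC class I molecules pair a heavy chain such as H2-K or H2-D with beta-2 microglobulin and show peptides made inside the cell to CD8 T cells, and nearly all nucleated cells carry them. MHC class II molecules pair an alpha and a beta chain, are held ready by the invariant chain, and show peptides taken up from outside to CD4 T cells. They are made mainly by B cells, dendritic cells and macrophages, but enterocytes of the small intestine also make them under the master regulator CIITA, which interferon-gamma induces, while NLRC5 is the counterpart of CIITA for class I genes.

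In the GRCm38 annotation 6 of the 10 genes stood on chromosome 17. From low to high coordinate they were H2-K1 (chr17:33996017-34000347), Tap1 (chr17:34187553-34197225), H2-Ab1 (chr17:34257689-34269419), H2-Aa (chr17:34282744-34287823), H2-Eb1 (chr17:34305867-34316674) and H2-D1 (chr17:35262730-35267499). The others were B2m (chr2:122147686-122153083), Ciita (chr16:10480059-10528418), Nlrc5 (chr8:94434356-94527272) and Cd74, on chromosomes of their own. Exons of Ciita overlapped those of Dexi, exons of Tap1 those of Psmb9 and exons of Nlrc5 those of 9330175E14Rik, all on the opposite strand, and an exon of Cd74 held Mir5107 on the same strand. Strand use in the counting is not stated in the sources used here, so reads of those pairs may not be told apart. For H2-D1, 4.64% of the 100-base stretches of its longest transcript also occurred in transcripts of H2-Q1, Gm7030 or H2-T23, so part of its count is uncertain. For the other 9 genes no such stretch was shared.

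The start of an MHC gene carries short elements that its regulators read, and the stretches below are shown because they carry the letters searched for. Promoters from RefSeq's table for GRCm38.p6 are described for 6 of the 10 genes, namely H2-Aa, H2-Eb1, H2-K1, H2-D1, B2m and Tap1. Cd74 was left out of this search, and H2-Ab1, Ciita and Nlrc5 had no promoter under their symbols. Each run is the 250 bases before the start site, written in the direction of the gene, with the letters of a matched motif in capitals. The motifs searched on both strands were the Y box (ATTGG), the X box core (AGCAAC), the interferon-stimulated response element or ISRE (GAAANNGAAA), the interferon-gamma activated site or GAS (TTCNNNGAA) and the kappa-B core of class I promoters (GATTCCC), and no matches overlapped in these runs.
H2-Aa, chr17:34287824-34288073, minus strand: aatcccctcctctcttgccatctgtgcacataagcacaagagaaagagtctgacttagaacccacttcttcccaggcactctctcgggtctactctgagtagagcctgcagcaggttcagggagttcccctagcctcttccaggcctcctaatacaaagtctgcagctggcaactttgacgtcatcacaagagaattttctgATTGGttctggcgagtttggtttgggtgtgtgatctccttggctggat
H2-Eb1, chr17:34305617-34305866, plus strand: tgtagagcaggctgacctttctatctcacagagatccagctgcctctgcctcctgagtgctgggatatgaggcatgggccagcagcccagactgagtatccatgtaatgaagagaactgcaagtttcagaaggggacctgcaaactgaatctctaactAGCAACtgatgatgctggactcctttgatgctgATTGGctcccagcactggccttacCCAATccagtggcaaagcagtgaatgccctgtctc
H2-K1, chr17:34000348-34000597, minus strand: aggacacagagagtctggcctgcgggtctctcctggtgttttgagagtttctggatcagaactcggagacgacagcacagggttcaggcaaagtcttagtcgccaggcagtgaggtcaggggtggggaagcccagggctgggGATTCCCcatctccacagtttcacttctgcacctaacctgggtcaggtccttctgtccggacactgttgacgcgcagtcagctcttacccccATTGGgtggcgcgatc
B2m, chr2:122147437-122147686, plus strand: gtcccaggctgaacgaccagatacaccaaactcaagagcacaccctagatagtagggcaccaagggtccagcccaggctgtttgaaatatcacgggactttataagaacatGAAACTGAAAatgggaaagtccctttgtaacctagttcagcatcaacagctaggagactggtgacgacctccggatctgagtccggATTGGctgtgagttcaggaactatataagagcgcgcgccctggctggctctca

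The Y box was found in 6 of the 6 genes' promoters, against 33.8% of all 32851 promoters of this length. In H2-Aa it began 48 bases before the start and in B2m 53 bases before it. H2-Eb1 held it at 59 bases and again, on the other strand, at 35 bases. H2-Eb1 was alone among the 6 in holding the exact letters AGCAAC, searched as the X box core, at 92 bases. Of all promoters 12.2% held those letters. The kappa-B core stood 108 bases before the H2-K1 start shown, the first of 2 in the table, and 168 bases before that of H2-D1, and 2.83% of all promoters held it. B2m held an ISRE match 139 bases before its start, against 2.98% of all promoters. The GAS letters, found in 7.02% of all promoters, were in none of the 6. A match describes letters only, and the absence of a match says only that those letters are not in this window.

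Total counts per library ranged from 7418730 to 31925579, and between 24.2% and 62.02% of them fell on mitochondrial genes. Levels are given in CPM, read counts relative to the library's total, scaled by trimmed mean of M values (TMM) factors. The first principal component (40.5% of the variance of log2 CPM) separated the 4 libraries numbered 58 to 61, which hold sham replicates 1 to 3 and pMCAO replicate 1, from the 8 numbered 62 and above. They are called the early and the later libraries here after those numbers only. A fit with 4 blocks of library numbers (58 to 61, 62 to 65, 66 to 68 and 72) is given beside the fit on the group alone. The first principal component shows only the first of these boundaries, and the others come from an earlier analysis of this table. That analysis placed the blocks so that its fit matched the study's deposited fold changes of pMCAO over sham. The fit with blocks is therefore not an independent check of a group difference, and its p-values are given as a description. The last block holds only sham replicate 7, which then adds nothing to the group difference. The epithelial label held in the markers: Epcam ranged from 882 to 2531 CPM. Stromal and endothelial markers were present in the table for 1 of 7 genes, Pecam1, at 5.24 CPM or less.

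In these sorted cells class I transcripts far exceeded class II transcripts. Per kilobase of exon, B2m averaged 1024 ± 152 CPM per kilobase (SD, n = 12), H2-K1 268 ± 83.9 and H2-D1 165 ± 33.6. The B2m libraries, at 809 to 1272 CPM per kilobase, did not overlap those of H2-K1, at 194 to 473. The ranges of H2-K1 and H2-D1 overlapped. Cd74, the invariant chain, led the class II arm at 40.7 ± 33.3 CPM per kilobase, and its highest library, at 104, stayed under the lowest of H2-D1, at 124. The chains followed with H2-Ab1 at 14.2 ± 9.21, H2-Aa at 6.63 ± 4.35 and H2-Eb1 at 5.83 ± 4.24 CPM per kilobase, and the ranges of neighbours in this order overlapped. Tap1, a subunit of the peptide pump into the endoplasmic reticulum, averaged 3.02 ± 1.48 CPM per kilobase. The regulators were lowest, Nlrc5 at 0.637 ± 0.412 and Ciita at 0.276 ± 0.301, and overlapped each other.

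Whether stroke changed these genes at 24 h was asked with limma-voom across all 14462 genes tested, with Benjamini-Hochberg adjustment. A gene was called where its adjusted p did not exceed 0.05 and its log2 fold change reached 1 in size. Of the 10 MHC genes 0 were called, against 0% of all genes tested (0 of 14462). The study itself reported called genes at these thresholds, after correcting for collection day. Its figure also counts more pMCAO mice than the labels hold, so a count of 0 in this fit does not mean that no gene responded. At an unadjusted p under 0.05 there were also 0 of the 10, against 8.43% of all genes. edgeR's quasi-likelihood test and DESeq2 likewise called 0 of the 10 and put 0 of them at an unadjusted p under 0.05. With the 4 library blocks 0 of the 10 were called, where 0.325% of all genes were, and 0 had an unadjusted p under 0.05, where 12.7% of all genes did. The CPM of the groups overlapped for each of the 10, and 0.505% of all genes did not overlap. The median log2 fold change of pMCAO over sham was -0.20 over the class II genes and -0.13 over the class I genes, beside 0.06 over all genes tested. In bulk RNA, a change in the share of cells that make a transcript and a change in transcript per cell cannot be told apart.

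H2-Aa encodes the alpha chain of the class II molecule I-A. Its level in pMCAO replicates 1 to 5 was 6.32, 54.1, 18.6, 13.5 and 18.8 CPM, and in sham it ran from 8.68 over a median of 28.8 to 48.7 CPM. The lowest and the highest of the 12 libraries were both from pMCAO mice, and the other 3 lay inside the sham range. In the fit pMCAO differed from sham by -0.31 ± 0.50 on the log2 scale (SE, adjusted p = 0.879), and the 95% confidence interval ran from -1.37 to 0.74.

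H2-Ab1 encodes the beta chain of I-A. The 5 pMCAO libraries, replicates 1 to 5, had 21.4, 82.7, 17.8, 28.4 and 29.7 CPM, and the sham libraries ran from 9.55 over a median of 33.8 to 81.3 CPM. The top pMCAO and the top sham library were nearly level, and the remaining pMCAO libraries lay below the sham median. The fitted change was 0.00 ± 0.47 on the log2 scale (SE, adjusted p = 0.998), and its interval ran from -0.99 to 1.00.

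H2-Eb1 encodes a second class II beta chain, E-beta. Its RNA is given here as a transcript level only, and not as a sign that an I-E molecule was made in these mice. H2-Eb1 stood at 3.93, 27, 6.20, 7.44 and 6.63 CPM in pMCAO replicates 1 to 5, and between 1.99 and 27.4 CPM with a median of 11.4 in sham. Again pMCAO replicate 2 was high and the other 4 were below the sham median. On the log2 scale the fitted change was -0.20 ± 0.59 (SE, adjusted p = 0.944), with an interval from -1.44 to 1.05.

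Cd74, which guards the peptide groove of class II until it is loaded, had the largest difference of the class II genes. In pMCAO replicates 1 to 5 its level was 21, 174, 16.1, 44.0 and 46.1 CPM, and in sham 13.7 to 155 CPM with a median of 44.8. The fitted log2 difference was -0.40 ± 0.61 (SE, adjusted p = 0.877), and the interval of -1.69 to 0.90 held falls and rises alike. With the 4 blocks it was -0.84 ± 0.58 (adjusted p = 0.591).

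Ciita was near the low end of detection, with 4 reads in sham replicate 3 and 6 in pMCAO replicate 1. Its level in pMCAO replicates 1 to 5 was 0.512, 11.2, 1.94, 0.959 and 1.09 CPM, and in sham it ran from 0.964 over a median of 2.08 to 3.83 CPM. The mean was higher in pMCAO, at 3.13 ± 4.52 CPM (SD, n = 5) against 2.27 ± 1.06 (SD, n = 7), through replicate 2 alone, since the other 4 pMCAO libraries were below the sham median. In the fit the log2 fold change was 0.01 ± 0.67 (SE, adjusted p = 0.997).

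**Figure D1:**
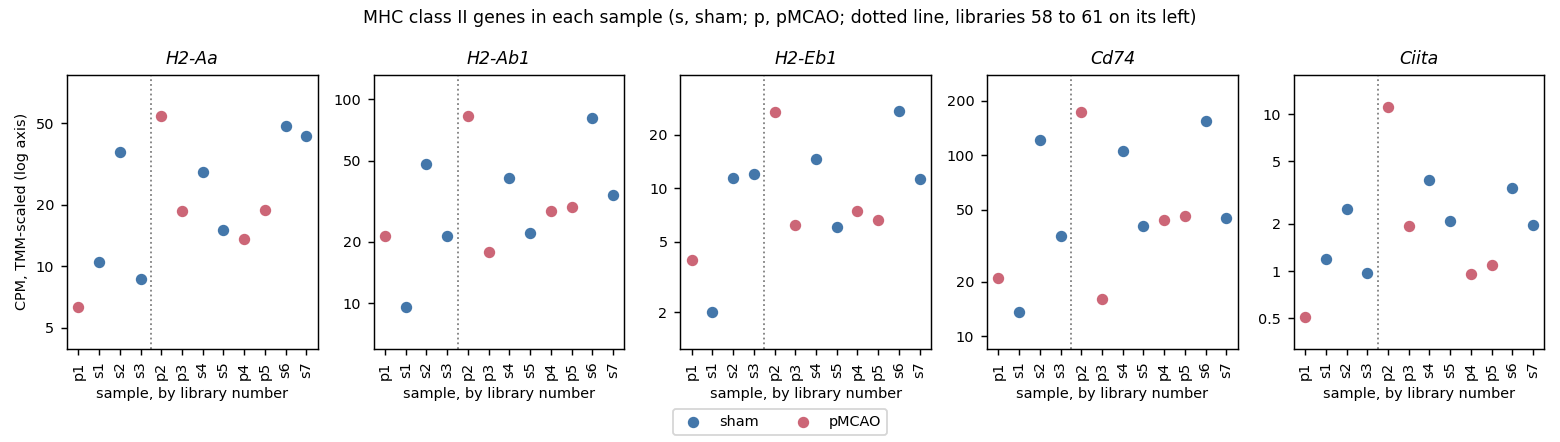
Level of each MHC class II gene in each library, in TMM-scaled CPM on a log axis, ordered by library number, with sham in blue and pMCAO in red. For each of the 5 genes pMCAO replicate 2 (p2) was among the top 2 libraries and the groups overlapped, as for H2-Aa at 6.32 to 54.1 CPM in pMCAO and 8.68 to 48.7 in sham.

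With the 4 library blocks the fitted difference was below 0 for 5 of the 5 class II genes, from -0.84 for Cd74 to -0.08 for Ciita, and their median was -0.36 beside 0.01 over all genes tested. None passed the test, and the intervals of all 5 held 0. The direction was not the same inside the blocks. Among libraries 66 to 68, where both pMCAO libraries stood against sham replicate 6 alone, the difference of mean log2 CPM ran from -1.95 for H2-Eb1 to -1.48 for H2-Ab1. Among libraries 62 to 65, with 2 of each group, it was above 0 for 4 of the 5 genes, from 0.35 for H2-Ab1 to 0.71 for Ciita, and -0.31 for Cd74. Among the early libraries, with 1 pMCAO library, it was -1.22 for H2-Aa, 0.01 for H2-Ab1, -0.72 for H2-Eb1, -0.90 for Cd74 and -1.32 for Ciita.

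A single library per group carried much of this. Without pMCAO replicate 2 the log2 fold changes were -0.76 for H2-Aa, -0.39 for H2-Ab1, -0.77 for H2-Eb1, -0.96 for Cd74 and -0.94 for Ciita. Without sham replicate 6 they were -0.04, 0.34, 0.37, -0.11 and 0.29 in the same order. Neither fit put any of the 5 at an unadjusted p under 0.05. Without both libraries, a choice made after seeing the data, the values were -0.49, -0.05, -0.21, -0.66 and -0.65.

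**Figure D2:**
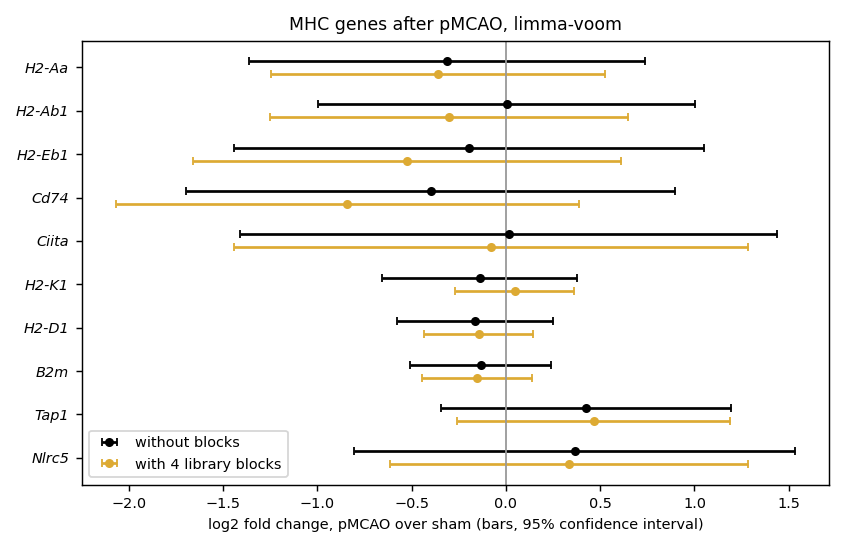
Fitted log2 fold change of pMCAO over sham for the 10 MHC genes by limma-voom, on the group alone (black) and with 4 library blocks (yellow). Points are estimates and bars 95% confidence intervals. Each interval crosses 0, and those of the class II genes, such as -1.69 to 0.90 for Cd74, are wider than that of B2m, -0.51 to 0.24.

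Class I heavy chains and B2m varied far less between mice. H2-K1 encodes a classical heavy chain, and its level in pMCAO replicates 1 to 5 was 1390, 626, 606, 627 and 569 CPM, beside 573 to 1032 CPM with a median of 812 in sham. Replicate 1 stood above each other library, and the other 4 pMCAO libraries stood near the bottom of the sham range or, for replicate 5, below it. Between the groups the log2 fold change was -0.14 ± 0.24 (SE, adjusted p = 0.894), with an interval from -0.66 to 0.38, and 0.05 ± 0.15 with the 4 blocks (adjusted p = 0.935).

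H2-D1, the other classical heavy chain of this strain, stood at 563, 402, 324, 372 and 326 CPM in pMCAO replicates 1 to 5 and at 320 to 545 CPM with a median of 437 in sham. Here too replicate 1 was the highest of the 12 libraries. The fitted log2 fold change was -0.16 ± 0.20 (SE, adjusted p = 0.836), with an interval from -0.58 to 0.25.

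B2m, the light chain that every classical class I molecule needs, had a highest library 1.57 times the lowest, the narrowest range of the 10 over all 12 libraries, though over the 8 later ones those of H2-K1 and H2-D1 were narrower. It stood at 907, 812, 695, 908 and 813 CPM in pMCAO replicates 1 to 5 and at 725 to 1094 CPM with a median of 947 in sham. Between pMCAO and sham the fitted log2 difference was -0.13 ± 0.18 (SE, adjusted p = 0.852), and its interval of -0.51 to 0.24 held no change as large as 1 in either direction.

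Tap1 had the smallest unadjusted p of the 10, at 0.257 by limma-voom. Its level was 6.23, 34.2, 13.0, 29.4 and 18.3 CPM in pMCAO replicates 1 to 5, and 8.90 to 19.9 CPM with a median of 13.0 in sham. The 2 highest libraries and the lowest were all pMCAO. The log2 fold change was 0.43 ± 0.36 (SE, adjusted p = 0.752), with an interval from -0.34 to 1.19, and 0.46 ± 0.34 with the 4 blocks (adjusted p = 0.615). Without pMCAO replicate 1 it was 0.69 (unadjusted p = 0.0315, adjusted p = 0.322), and without pMCAO replicate 2 it was 0.12.

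Nlrc5 stood at 0.768, 13.7, 4.12, 9.27 and 4.37 CPM in pMCAO replicates 1 to 5, the first from 9 reads, and at 1.59 to 7.35 CPM with a median of 4.35 in sham. As for Tap1, pMCAO replicates 2 and 4 were the highest libraries and replicate 1 the lowest. The log2 fold change was 0.37 ± 0.55 (SE, adjusted p = 0.873), with an interval from -0.80 to 1.54, and it was -0.18 without pMCAO replicate 2. Within the early libraries the difference of mean log2 CPM was -1.86 for Nlrc5 and -0.98 for Tap1, while within libraries 62 to 65 it was 0.52 and 0.66, and within libraries 66 to 68 it was 0.53 and 0.69.

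**Figure D3:**
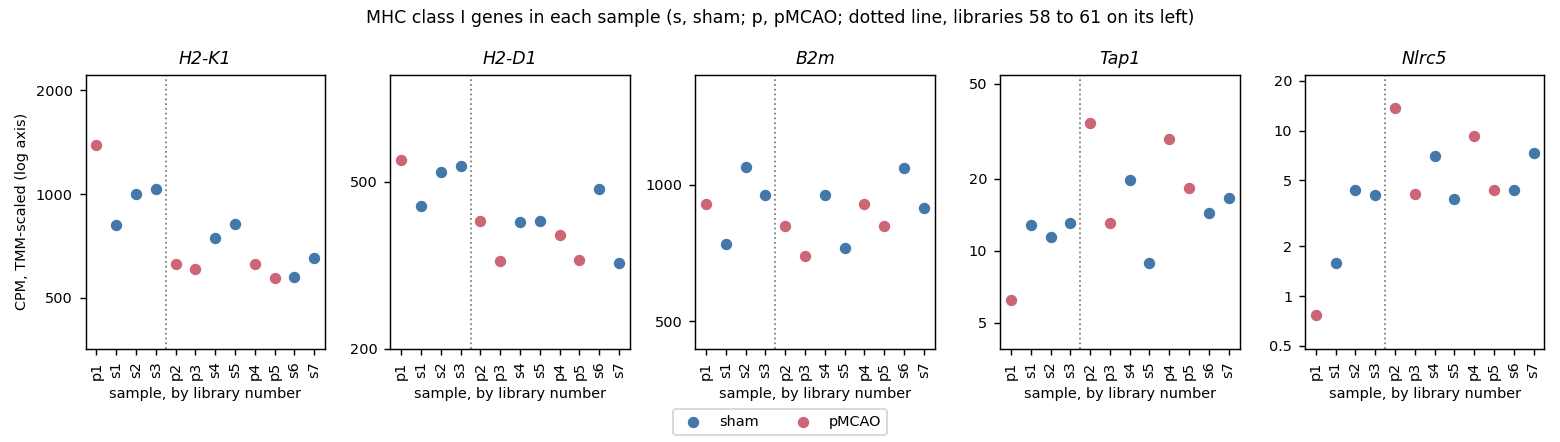
Level of each gene of the MHC class I arm in each library, in TMM-scaled CPM on a log axis, ordered by library number, with sham in blue and pMCAO in red. H2-K1 and H2-D1 were highest in pMCAO replicate 1 (p1), at 1390 and 563 CPM, where Tap1 and Nlrc5 were lowest, at 6.23 and 0.768 CPM.

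Levels also differed with library number. The mean log2 CPM of the later libraries minus that of the early ones was 1.13 for H2-Aa, 0.77 for H2-Ab1, 0.93 for H2-Eb1, 0.84 for Cd74 and 1.07 for Ciita, beside a median of 0.23 over all genes. It was 1.45 for Nlrc5 and 0.77 for Tap1, and -0.68 for H2-K1, -0.46 for H2-D1 and -0.10 for B2m. Scaled to total counts instead, the median over all genes was 1.01 and the differences of H2-K1, H2-D1 and B2m turned to 0.15, 0.37 and 0.73, so that these 3 lay below the median of all genes under both scalings while their sign did not hold. For 0 of the 10 genes were all early libraries below all later ones, against 9.40% of all genes. The summed level of the 7 epithelial markers was 10109 to 12701 CPM in the early libraries and 5342 to 8774 in the later ones, and the part of this shift in the MHC levels was not tested. The groups were also compared by the plain difference of mean log2 CPM, pMCAO minus sham, which is not the fitted change. Scaling to total counts moved its median over all genes from 0.09 to 0.39. It turned the sign of this difference for H2-Eb1, Ciita, H2-K1, H2-D1 and B2m. For Ciita the difference was -0.28 with TMM and 0.03 with total counts, where the fitted change was 0.01.

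The class II genes varied together from mouse to mouse. Over the 8 later libraries the Pearson correlation of log2 CPM between pairs of the 5 genes had a median of 0.82 and ran from 0.72 for Cd74 with Ciita to 0.97 for H2-Ab1 with H2-Eb1. Between pairs of the class I arm the median was 0.10, with Tap1 and Nlrc5 at 0.89 and Tap1 and H2-K1 at -0.36. Between the arms the median was 0.48. These are descriptions over libraries that share depth and sort, with no test. The highest later library exceeded the lowest 10.8 times for Cd74, 11.6 times for Ciita, 4.65 times for H2-Ab1, 4.55 times for H2-Eb1 and 4.00 times for H2-Aa, and 1.44 times for H2-K1, 1.51 times for H2-D1 and 1.57 times for B2m. Ranked among all genes tested, the SD of log2 CPM over the later libraries stood at percentile 87.6 for Cd74 and 85.5 for Ciita, at 72.3 for H2-Aa, and at 4.27 for H2-K1, 6.64 for H2-D1 and 7.25 for B2m. By mean level these genes stood at percentile 86.0, 28.9, 72.6, 99.5, 98.9 and 99.6 in the same order. Their spread was not compared with that of genes of like level.

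The genes whose log2 CPM followed the mean of H2-Aa, H2-Ab1, H2-Eb1 and Cd74 most closely over the 12 libraries were Stip1 (Pearson r = 0.89), Gemin6 (0.87), Ccdc91 (0.86), Gbp8 (0.84) and Clec4a1 (0.83). Gbp8 belongs to the guanylate-binding proteins that interferon-gamma induces, and Clec4a1 is a C-type lectin of myeloid cells. For the mean of H2-K1, H2-D1, B2m and Tap1 they were Bhlha15 (0.88), Samhd1 (0.86), Ptk6 (0.85), Tcf7l2 (0.82) and Oas3 (0.82). Over the 8 later libraries the values were 0.82, 0.80, 0.80, 0.79 and 0.69 for Stip1 to Clec4a1, and 0.97, 0.86, 0.88, 0.82 and 0.78 for Bhlha15 to Oas3. Gemin6, Clec4a1 and Bhlha15 were low, with means of 0.948, 2.06 and 1.64 CPM. H2-K1 and Tap1, both in the class I mean, correlated at -0.70 over the 12 libraries. The genes named were picked as the highest of all genes, so the values are a description without a test.

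The wider antigen presentation pathway was described by lists of genes grouped by role. Of 67 genes listed, 59 were in the table and 57 were tested, 0 were called with or without blocks by limma-voom, and 3 had an unadjusted p under 0.05 on the group alone, 2 higher and 1 lower in pMCAO, beside 8.43% of all genes. With the 4 blocks there were 4, 2 in each direction, beside 12.7% of all genes. The median log2 fold change of the 57 was 0.13, beside 0.06 over all genes.

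Among genes that load class II, 8 of 10 were tested, with a median log2 fold change of 0.13. Lgmn, a lysosomal protease that trims the invariant chain and antigens, was 16.6, 8.85, 8.50, 15.0 and 12.3 CPM in pMCAO replicates 1 to 5 and 4.04 to 11.1 CPM with a median of 7.04 in sham. Its lowest pMCAO libraries lay inside the sham range and the other 3 above it. Its log2 fold change was 0.76 ± 0.30 (SE, unadjusted p = 0.0201, adjusted p = 0.512), and 0.95 ± 0.31 with the 4 blocks (adjusted p = 0.201).

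Among genes that cut peptides for class I and load them, such as the immunoproteasome subunits and Tapbp, 12 of 12 were tested. Of these 11 had a fold change above 0, beside 7986 of all 14462 genes, with a median of 0.23 beside 0.06 over all genes. With the 4 blocks 10 were above 0, beside 7413 of 14462. Their summed level was 306 to 426 CPM in the early libraries, mostly sham, and 496 to 671 in the later ones. The part of that shift in the fold changes was not tested. None of the 12 had an unadjusted p under 0.05 on the group alone, and with the 4 blocks the 1 that did was Erap1, the peptide-trimming aminopeptidase, at -0.44 (adjusted p = 0.346), which is named after its value was seen. The nonclassical MHC genes, of which 14 of 16 were tested, had a median of 0.26 and 0 at an unadjusted p under 0.05. The 7 promoter factors listed, of the RFX, CREB and NF-Y families, had a median of -0.28. On the group alone 0 of them had an unadjusted p under 0.05. With the 4 blocks 1 did, Creb1, at -0.38 (adjusted p = 0.322), also named after its value was seen. Of the costimulatory molecules 2 of 6 were tested, and both were at -0.10.

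The chains of the receptor for interferon-gamma, the inducer of Ciita, had fold changes of opposite sign. Ifngr1, the ligand-binding chain, was 96.3, 64.5, 79.6, 71.9 and 67.1 CPM in pMCAO replicates 1 to 5 and 75.0 to 136 CPM with a median of 105 in sham. Its log2 fold change was -0.42 ± 0.19 (SE, unadjusted p = 0.0359, adjusted p = 0.570), and -0.25 ± 0.14 with the 4 blocks (unadjusted p = 0.0859, adjusted p = 0.472). Ifngr2, the signalling chain, was 108, 76.0, 89.8, 99.0 and 83.3 CPM in pMCAO and 47.8 to 82.2 CPM with a median of 68.8 in sham, at 0.43 ± 0.17 (SE, unadjusted p = 0.0247, adjusted p = 0.526), and 0.34 ± 0.14 with the 4 blocks (unadjusted p = 0.0282, adjusted p = 0.324). Neither passed the adjusted threshold, and the groups overlapped for both. The 14 tested genes of the interferon-gamma signalling list had a median of 0.16 on the group alone and -0.11 with the 4 blocks. The summed level of the 15 genes of that list in the table was 1009 to 1149 CPM in the early libraries, mostly sham. In the later libraries it was 573 to 860 CPM. The part of that shift in the fold changes was not tested.

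**Figure D4:**
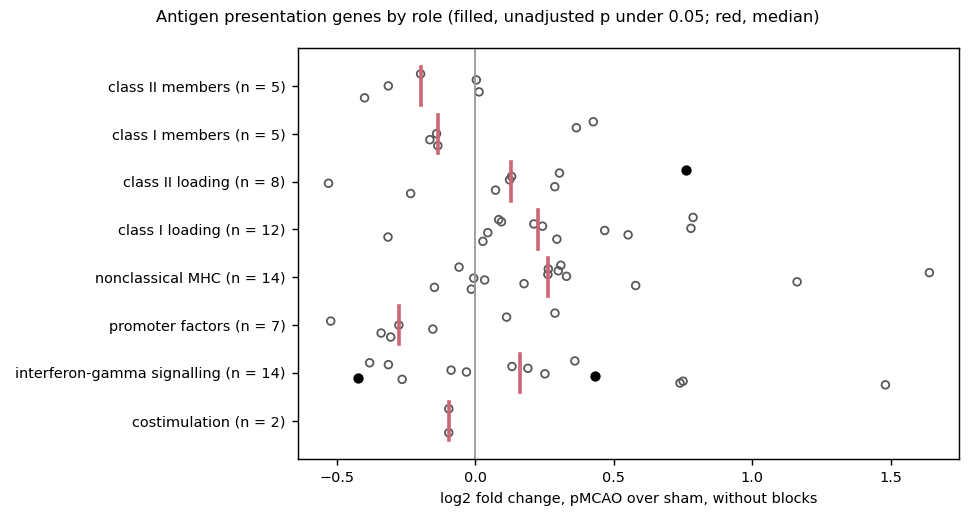
Fitted log2 fold change of pMCAO over sham for each tested antigen presentation gene by role, on the group alone. Each circle is a gene, filled where its unadjusted p was under 0.05 (Lgmn at 0.76, Ifngr1 at -0.42 and Ifngr2 at 0.43), and the red bar is the median of the list, such as 0.23 for class I loading and -0.20 for the class II members.

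Professional antigen-presenting leukocytes make more class II than enterocytes do, and leukocyte markers were followed in the same libraries. The sort kept EpCAM+ cells, but Ptprc, the common leukocyte antigen, was detected in each library at 15.2 to 121 CPM. The summed level of the 5 class II genes was 36.9 to 316 CPM in sham and 53.2 to 349 in pMCAO. That of the 6 B and plasma cell markers in the table was 4.56 to 32.2 CPM in sham and 5.60 to 26.7 in pMCAO, with Cd79a at 0 in sham replicate 1. That of the 9 myeloid markers in the table was 15.3 to 79.4 CPM in sham and 19.6 to 45.3 in pMCAO, and Csf1r ranged from 0.342 to 5.19 CPM. That of the 5 pan-leukocyte markers was 26.7 to 168 and 36.5 to 100 CPM in sham and pMCAO. The 9 T cell and intraepithelial lymphocyte (IEL) markers summed to 15.9 to 560 CPM in sham and 44.7 to 400 in pMCAO, and Cd3e was at 0 in sham replicate 3 and pMCAO replicate 1.

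The libraries highest in class II were not the same in all of these lists. In pMCAO replicate 2, at 349 CPM of class II, the T cell and IEL markers summed to 400 CPM, the myeloid markers to 45.3 and the B and plasma cell markers to 15.5, and Csf1r had its highest level. In sham replicate 6, at 316 CPM of class II, the B and plasma cell markers, at 4.56 CPM, and the myeloid markers, at 15.3, were at the lowest of the 12 libraries. Of the single myeloid markers Cd14, at 2.82 CPM, was at its highest of the 12 there, Adgre1, at 0.179, at its lowest, and the others at neither. The 5 pan-leukocyte markers summed to 114 CPM in sham replicate 6, of which Ptprc gave 109. Laptm5 at 0.742 CPM and Cd52 at 1.61 were at their lowest of the 12, while Coro1a at 1.10 and Cd53 at 1.66 were not. Sham replicate 7 was highest in each of the 4 leukocyte lists and held 135 CPM of class II. The summed level of the 6 markers of the distal small intestine was 1222 CPM in pMCAO replicate 2, the lowest of the 12 libraries, and 2238 CPM in sham replicate 6, and over all libraries it was 1484 to 3963 CPM in sham and 1222 to 2938 in pMCAO. That of the 6 proximal markers was 1180 to 2439 CPM in sham and 1477 to 2655 in pMCAO. The part of these cells in the class II levels was not tested beyond these values.

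Between the groups, 9 of the 9 T cell and IEL markers had a fold change above 0, beside 7986 of all 14462 genes tested. Their median was 0.77, and 0 had an unadjusted p under 0.05. With the 4 blocks 5 of them had one, all higher in pMCAO, beside 12.7% of all genes, with 0 called. Sham replicate 7, highest in the sum of these markers at 560 CPM, adds nothing to the group difference in that fit. The median of that sum was 112 CPM in sham and 102 in pMCAO. Of the B and plasma cell markers 0 of 6 had an unadjusted p under 0.05 in either fit, and of the 8 myeloid markers tested 1 did on the group alone and 1 with the blocks, both higher in pMCAO and neither called. Of the 5 pan-leukocyte markers 1 had an unadjusted p under 0.05 in each fit, also higher in pMCAO, and of the 7 epithelial markers 0 did. Of the 6 distal markers 4 had an unadjusted p under 0.05 on the group alone, 2 in each direction, and 3 with the blocks, 1 higher and 2 lower in pMCAO. Of the 6 proximal markers 2 did in each fit, 1 in each direction, and 0 of either list were called. Whether the region sampled had a part in the MHC values was not tested.

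**Figure D5:**
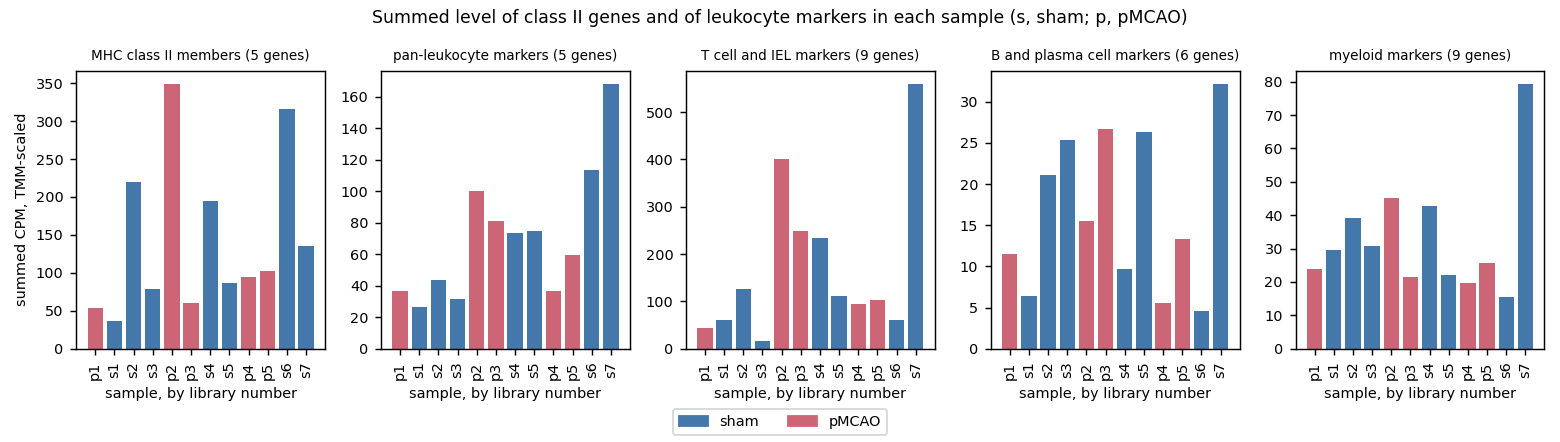
Summed TMM-scaled CPM of the 5 MHC class II genes and of the 4 lists of leukocyte markers in each library, ordered by library number, with sham in blue and pMCAO in red. Class II was highest in pMCAO replicate 2 (p2) and sham replicate 6 (s6), at 349 and 316 CPM, and the marker lists were highest in sham replicate 7 (s7), as for the T cell and IEL markers at 560 CPM.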

How the data were processed

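By their labels 7 samples are sham and 5 pMCAO, all biological replicates, and each was matched by name to its column, with 0 sample columns unmatched. Whether each is a separate mouse is taken from those labels, and p-values measure the spread between these samples. By the study's methods and processing notes the authors depleted ribosomal RNA, sequenced paired-end reads, aligned them with STAR to GRCm38 (mm10), assigned them with featureCounts and tested with limma-voom after correcting for collection day. The deposited count columns are whole-number counts per gene, not normalised. The deposited CPM columns equalled those counts rescaled to the table's total, within 0.0011 for 190260 of 190260 values. The deposited fold changes, average expression, p-values and false discovery rates are the authors' own comparison and were not used in any fit, but the deposited fold changes had a part in the library blocks, as stated below.

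Here filterByExpr (minimum count 10) kept 14462 of 15855 genes. Counts were scaled with TMM and fitted on the group alone with limma-voom, using R 4.3.3 with limma 3.58.1 and edgeR 4.0.16, with Benjamini-Hochberg adjustment over all genes tested. A gene was called where its adjusted p did not exceed 0.05 and its log2 fold change reached 1 in size, as in the study's methods. Log2 CPM used a prior count of 2. The alternatives tried were DESeq2 (1.42.0), edgeR's quasi-likelihood test, other scaling and filters, library blocks and leaving out libraries. As the labels give no collection day, the main fit had no batch term, and the 4 blocks of library numbers came from an earlier analysis of this table, which placed them so that its fit matched the deposited fold changes. Whether each block is a day was not known. The script was tested on simulated data.

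The MHC genes and the pathway and marker lists were chosen with earlier results of these data known. Named beside the 10 MHC genes were the pathway genes with an unadjusted p under 0.05 (at most 12), genes called with the blocks, the 5 genes most like each arm, and Epcam, Ptprc, Cd79a, Cd3e and Csf1r. Pecam1, Laptm5, Cd52, Coro1a, Cd53, Cd14, Adgre1, Erap1 and Creb1 were named after their values were seen. Promoters were 250 bases before the start in RefSeq's table (GRCm38.p6), with symbols matched for 6 of 10 genes and Cd74 not searched. Gene positions and exon lengths came from GENCODE on GRCm38. Library depth was 7418730 to 31925579 counts, and the closest 2 libraries of a group differed by a chi-square of 20.1 per degree of freedom, so none was a copy of another.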

Additional observations from a re-analysis of the deposited data

Results flagged for a closer look

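H2-K1 was far above the rest of its group in pMCAO replicate 1, with a log2 CPM of 10.44 (1390 CPM) against 9.15 to 9.29 in the other 4 pMCAO libraries, a gap of 0.893 of the group's range. Nlrc5 was far below the rest of its group in sham replicate 1, with a log2 CPM of 0.76 (1.59 CPM) against 1.99 to 2.90 in the other 6 sham libraries, a gap of 0.575 of the range. Both libraries are among the early ones. Across 20 groups examined (10 genes in 2 groups) 2 passed Dixon's limit, and chance gives about 1 in 20.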

How the results depend on the processing

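The count of MHC genes called was 0 of 10 and that of pathway genes 0 under each of the 24 alternatives run. One MHC gene, Tap1, reached an unadjusted p under 0.05 in 1 of them, without pMCAO replicate 1, so that count ranged from 0 to 1 when each library was left out in turn. The sign of the fitted difference held under the 24 alternatives for Cd74, H2-D1, B2m and Tap1, and differed in 1 for H2-Aa, 3 for H2-Eb1, 2 for H2-K1, 2 for Nlrc5, 10 for Ciita and 12 for H2-Ab1. Scaling to total counts, which is not among the 24, turned the difference of mean log2 CPM to 0.15 for H2-D1 and 0.18 for B2m. Over all genes the count called was 0 on the group alone and also with edgeR (930 genes at an unadjusted p under 0.05), but 70 with DESeq2, 47 with 4 library blocks, 16 with 2 library runs, 156 with the library number as a covariate and 18 with sample quality weights. It ranged from 0 to 17 with each library left out, at 8 without pMCAO replicate 1, 17 without pMCAO replicate 3 and 5 without sham replicate 7, and was 0 without the rest. The cause was not tested.

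The labels number the replicates of both groups from 1. Deviations from the group mean correlated between same-numbered samples at 0.40, -0.24, -0.16, 0.16 and 0.08 for numbers 1 to 5. Samples of unlike number were not compared in this way, so these values cannot tell whether the numbers pair the samples. A fit with the replicate block on numbers 1 to 5 called 259 genes, of which 0 were MHC genes. Class II counts as low as 4 reads (Ciita) and 5 pMCAO libraries limit what can be seen: the 95% intervals of the class II genes reached from -1.69 (Cd74) to 1.44 (Ciita) on the log2 scale.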
